A study of Mus musculus with 3 samples.

Results

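Potassium channel genes were compared between cerebella in which Smarca5 was conditionally knocked out (cKO) and wild-type cerebella. The genes were chosen by name alone. Every probe whose platform symbol, updated to the current mouse symbol, starts with Kcn was taken, and the probes of a gene were then averaged within an array. This gave 82 genes from 127 probes, of 28226 features measured on all 3 arrays (19887 named genes and 8339 unnamed probes). All 82 were measured on all 3 arrays, so none was lost to a filter. They comprise 79 coding genes and 3 noncoding RNAs that carry the name of a neighbouring channel gene. The gene table holds 98 symbols that start with Kcn, and the other 16 were not analysed here.

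The tissue was dissected cerebellum at postnatal day 10 from Smarca5 cKO mice and from wild-type mice, both given as strain C57Bl/6. Smarca5 encodes an ATPase of the ISWI chromatin remodelers. Each of 3 arrays with 2 colours held 1 cKO sample in channel 2 and 1 wild-type sample in channel 1, and on replicate 3 the dyes were exchanged. The driver of the deletion, the cells it reaches and whether a sample was 1 animal or a pool do not appear in the labels, so the p-values reflect array-to-array spread only, and that spread may be technical. Each value below is a log2 ratio, cKO over wild type, and each mean carries its SD (n = 3 arrays). The log base is not stated and was read as 2, so fold changes hold only for that base. The table holds ratios and no intensities, so signal over background is unknown, levels of different genes cannot be compared, and the tissue's defining markers cannot be checked for presence. The number of arrays limits the precision. Smarca5 itself had -0.74, -0.96 and -0.88 on replicates 1, 2 and 3. The direction of the ratios rests on the channel labels and in part on this lower value.

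Potassium channels let potassium leave the cell down its gradient and so set the resting potential, repolarize action potentials and shape firing rate. Voltage-gated channels (Kcna, Kcnb, Kcnc, Kcnd, Kcnh, Kcnq) open on depolarization, inward rectifiers (Kcnj) and tandem-pore leak channels (Kcnk) act near rest, and calcium- or sodium-activated channels (Kcnma, Kcnn, Kcnt, Kcnu) follow the ions that enter during activity. Auxiliary proteins (Kcnab, Kcne, Kcnip, Kcnmb) change the traffic and gating of the pores. In the cerebellum, granule neurons acquire leak and A-type currents as they mature, Purkinje cells and basket cell terminals depend on fast voltage-gated channels, and glia take up potassium through inward rectifiers.

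The Kcn genes were not shifted as a family but spread to both sides, with a longer lower end. Their median log2 ratio was 0.00, as over all features (0.00), while the median size of the ratio, ignoring sign, was 0.33 against 0.24 over all features. A mean beyond 1 in size was found for 7 Kcn genes (8.54%), and for 3.91% of all features. These 7 were the leak channels Kcnk10 and Kcnk3, the inward rectifier Kcnj12, the voltage-gated channels Kcnc1 and Kcnd2, the auxiliary subunit Kcnmb4 and its antisense neighbour Kcnmb4os2, and all were lower in the cKO. The highest mean of any Kcn gene was 0.85.

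In the fit of limma with Benjamini-Hochberg adjustment over all features, 0 of 82 Kcn genes passed an adjusted p of 0.05, as did 0% of all features. At the looser threshold of 0.10, 7 Kcn genes fell, against 1.68% of all features, and 0 rose, against 2.08% of all features. At an unadjusted p of 0.05, 16 Kcn genes (19.5%) were lower, against 9.97% of all features, and 14 (17.1%) were higher, against 10.9%. The log ratio was below 0 on all 3 arrays for 22 Kcn genes (26.8%), against 21.4% of all features, and above 0 on all 3 arrays for 26 (31.7%), against 22.1%. The remaining 34 took both signs or a value of 0. The smallest adjusted p of any feature in limma was 0.0841, so genes that share this value are not ranked by it. The threshold of 0.10 divides Kcnmb4 (limma, adjusted p = 0.0949) from Kcnh1 (limma, adjusted p = 0.104). With any 1 of the 3 arrays left out, with a dye term or without variance moderation, 0 Kcn genes passed 0.10. The 7 genes were below 0 on every array, so their means could not change sign in these settings. Of all 28226 features, 0 passed with an array left out or with a dye term, and 2 without variance moderation. With each probe tested on its own, 15 of 127 Kcn probes passed 0.10, against 1912 of 38753 features. Of these 15 probes, 3 were higher, 2 of Kcnc2 and 1 of Kcnf1.

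**Figure D1:**
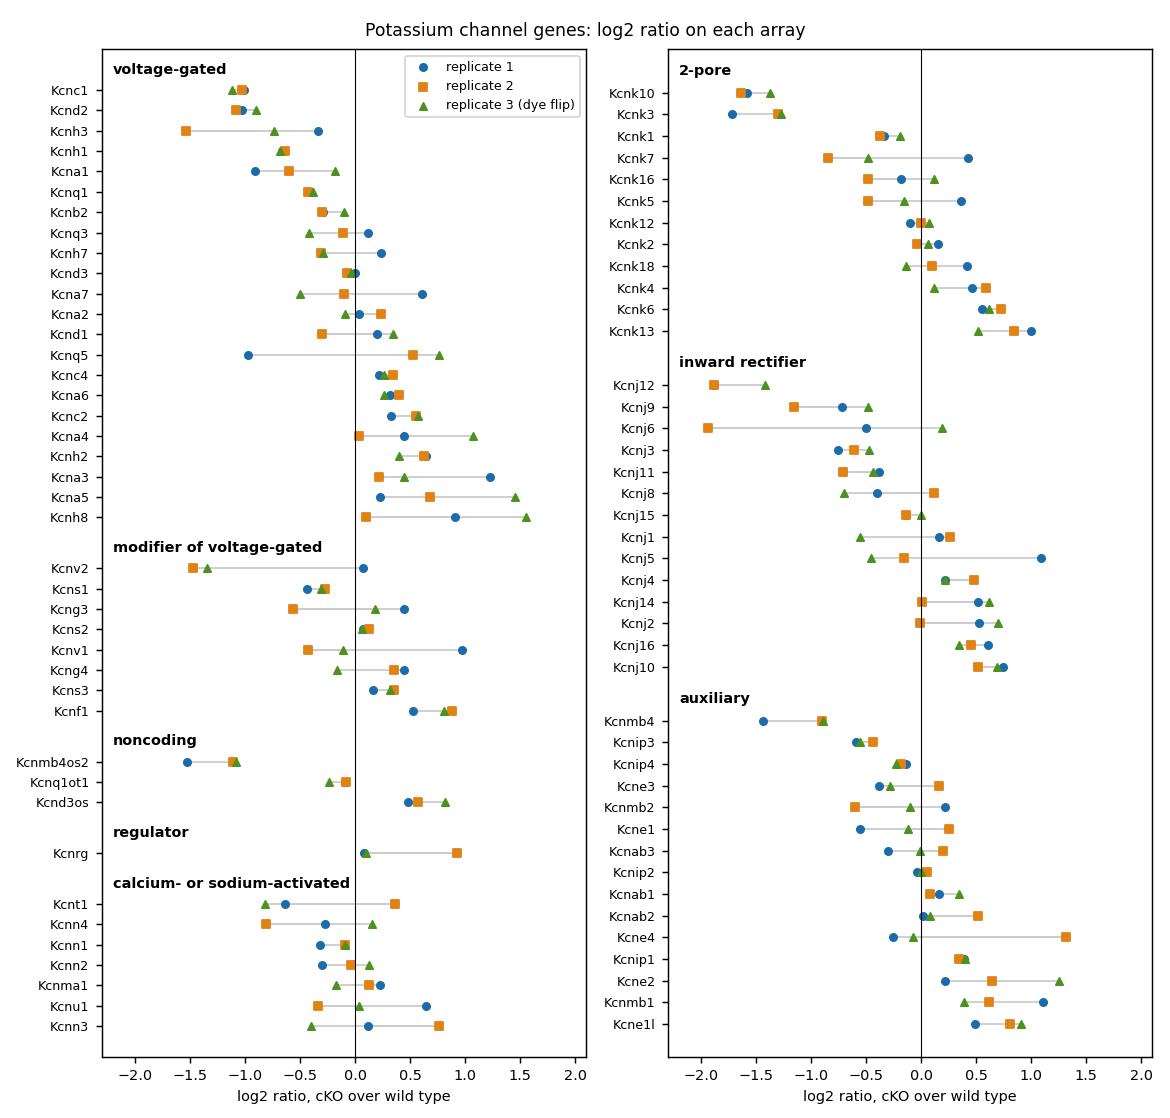
Log2 ratio of cKO over wild type (x axis) of each of the 82 Kcn genes on each array, with genes grouped by the kind of channel and ordered by mean within a kind. Points are the 3 arrays and a grey line joins those of a gene; the points of Kcnk10, Kcnk3, Kcnj12, Kcnc1 and Kcnd2 lie close together and far left of 0.

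**Figure D2:**
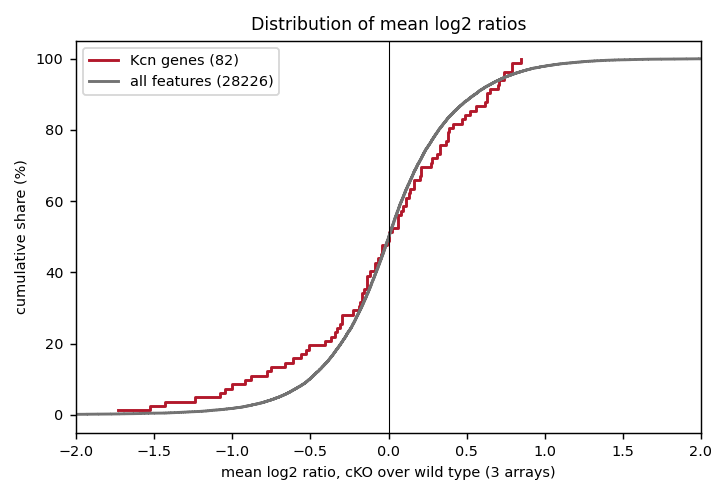
Cumulative share of genes (y axis, percent) up to a given mean log2 ratio over 3 arrays (x axis), for the 82 Kcn genes and for all 28226 features. Both curves cross the middle near 0, and the Kcn curve lies above that of all features below about -0.5, where the lower genes gather.

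Leak channels of the Kcnk family gave 2 of the strongest decreases. Kcnk10 encodes a tandem-pore channel opened by stretch and fatty acids, and its log2 ratio was -1.58, -1.64 and -1.37 on replicates 1, 2 and 3. All arrays lay well below 0, with a mean of -1.53 ± 0.14, which is 2.89-fold lower (limma, adjusted p = 0.0841). Both of its probes, each named through a clone synonym, were lower, with means of -1.22 ± 0.20 and -1.84 ± 0.34. Kcnk3, an acid-sensitive leak channel known in granule neurons, had -1.72, -1.30 and -1.27. It fell by a mean of 1.43 ± 0.25, or 2.69-fold (limma, adjusted p = 0.0841), and its 2 probes had -1.59 ± 0.39 and -1.26 ± 0.13. Its close relative Kcnk9 was not analysed here.

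The other leak channels were spread about 0, and 2 of them were higher. Kcnk13, a halothane-inhibited leak channel known in microglia, had 1.00, 0.84 and 0.52, with a mean of 0.79 ± 0.24 (limma, adjusted p = 0.11). The microglial markers moved the same way on the same arrays, with 10 of 10 above 0 on all 3, against 22.1% of all features. Past the threshold of 0.10 were 7 of them, while 2.08% of all features rose past it. The list medians were 1.04, 0.95 and 1.04 on replicates 1, 2 and 3. The marker lists used here and below were chosen with earlier results of these data known. The part of the microglial markers in the value of Kcnk13 was not tested. Kcnk6, a weakly rectifying leak channel, had 0.55, 0.73 and 0.62, with a mean of 0.63 ± 0.09 (limma, adjusted p = 0.109). Its relative Kcnk1 was below 0 on every array, at -0.34, -0.37 and -0.19, and did not pass (limma, unadjusted p = 0.0666). Kcnk4 is given here because of its probes, as seen in the values: one had 1.06 ± 0.44 and the other -0.27 ± 0.04, so its mean of 0.39 ± 0.24 describes neither. The means of the remaining 6 leak channels lay between -0.30 and 0.13.

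Among the inward rectifiers, the 14 measured genes held the lowest Kcn value and a pair of higher glial genes. Kcnj12 encodes a strong inward rectifier that holds the membrane near the potassium potential. Its log2 ratio was -1.88, -1.88 and -1.42, lower on every array, with a mean of -1.73 ± 0.27 or 3.31-fold lower (limma, adjusted p = 0.0841). It rests on 1 probe. The other strong rectifiers Kcnj2, Kcnj4 and Kcnj14 had means of 0.41 ± 0.37, 0.31 ± 0.15 and 0.38 ± 0.32, opposite in sign to Kcnj12, and none passed an unadjusted p of 0.05. They were picked after their values were seen, because they belong to the same functional group.

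Channels opened by G proteins (Kcnj3, Kcnj5, Kcnj6 and Kcnj9) carry the slow inhibition set off by GABA-B and other receptors. Kcnj3 had -0.76, -0.61 and -0.47, below 0 on all arrays, with a mean of -0.61 ± 0.14 (limma, adjusted p = 0.12). Kcnj9 had -0.72, -1.16 and -0.48, with a mean of -0.78 ± 0.35 (limma, adjusted p = 0.134), and both of its probes were lower on all arrays. Kcnj6, the gene mutated in the weaver mouse, whose granule neurons die, differed between arrays, with -0.50, -1.94 and 0.19. Its mean of -0.75 ± 1.09 rests on 1 probe and on replicate 2, and the sign turned on the dye-flipped array. Kcnj5 had 0.16 ± 0.82 and also took both signs. Of 15 measured genes for G proteins, their regulators and receptors that act on these channels, 3 were lower and 1 higher at an unadjusted p of 0.05, against 9.97% and 10.9% of all features. Gnb5, a G protein beta subunit bound by RGS proteins, fell by 0.93 ± 0.15 (limma, adjusted p = 0.0885), and the dopamine receptor Drd2 rose by 1.24 ± 0.21 (limma, adjusted p = 0.0841).

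The rectifiers of glia lay above 0. Kcnj10, the main potassium uptake channel of astrocytes and Bergmann glia, had 0.74, 0.52 and 0.69, with a mean of 0.65 ± 0.12 (limma, adjusted p = 0.109). Kcnj16, which joins Kcnj10 in mixed channels, had 0.61, 0.45 and 0.34, with a mean of 0.47 ± 0.14 (limma, adjusted p = 0.164). Both were above 0 on every array and neither passed 0.10. Markers of astrocytes and Bergmann glia were above 0 on all arrays for 6 of 10 genes and below 0 for 2. Over all features, 22.1% were above and 21.4% below 0 on all arrays. The list medians of these markers were 0.06, 0.22 and 0.11 on replicates 1, 2 and 3. Their part in the values of Kcnj10 and Kcnj16 was not tested. Of the pores gated by ATP, Kcnj11 had -0.38, -0.71 and -0.44, with a mean of -0.51 ± 0.18 (limma, adjusted p = 0.157), and Kcnj8, known in pericytes, had -0.40, 0.12 and -0.70. The sulfonylurea receptors that complete these channels had -0.89 ± 0.26 for Abcc8, lower on all arrays, and -0.07 ± 0.06 for Abcc9. Kcnj1 and Kcnj15, better known from kidney, had means of -0.05 and -0.09.

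Kcnj9 and Kcnj10 are next to each other on chromosome 1, with no other coding gene between them in the gene table, and stood on opposite sides of 0 on every array. Kcnj9 minus Kcnj10 was -1.43 ± 0.26 on the log2 scale. The difference was not tested across all features, and an exact two-sided sign permutation over 3 arrays cannot give a p below 0.25. Of 9 neighbouring Kcn pairs, 3 differed in sign on all arrays, with this one among them, and both of the others contain Kcna1. The share of such pairs over all neighbouring genes was not computed, so this count cannot be called high or low. Kcna5 (0.79 ± 0.62) and Kcna1 (-0.56 ± 0.37) on chromosome 6 differed by 1.35 ± 0.25, and Kcna1 minus its other neighbour Kcna6 (0.33 ± 0.07) was -0.89 ± 0.41. By contrast, Kcnj16 (0.47 ± 0.14) and Kcnj2 (0.41 ± 0.37) on chromosome 11 differed by 0.06 ± 0.41, within their spread.

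The RefSeq promoter windows below (build GRCm38.p6, 250 bases before an annotated start, 5′ to 3′) are shown for genes with adjusted p under 0.10 whose window lies outside every annotated gene, and for the neighbours Kcnj9 and Kcnj10. Of the 7 genes that fell, 6 had a window and 2 met that condition. Capitals mark the GC box GGGCGG on either strand. Kcnk10 is at chr12:98578214-98578463 on the minus strand, Kcnd2 at chr6:21215096-21215345 on the plus strand, Kcnj9 at chr1:172329323-172329572 on the minus strand and Kcnj10 at chr1:172340960-172341209 on the plus strand.
Kcnk10: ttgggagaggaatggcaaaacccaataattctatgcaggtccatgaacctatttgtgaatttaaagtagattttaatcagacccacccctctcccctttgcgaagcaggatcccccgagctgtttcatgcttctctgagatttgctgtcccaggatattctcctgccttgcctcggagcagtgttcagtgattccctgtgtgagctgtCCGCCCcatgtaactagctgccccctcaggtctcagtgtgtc
Kcnd2: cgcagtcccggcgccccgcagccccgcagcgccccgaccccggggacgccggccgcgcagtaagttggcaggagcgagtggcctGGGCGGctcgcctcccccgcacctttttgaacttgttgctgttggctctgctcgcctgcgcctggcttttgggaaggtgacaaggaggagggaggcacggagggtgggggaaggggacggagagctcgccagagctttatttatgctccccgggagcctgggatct
Kcnj9: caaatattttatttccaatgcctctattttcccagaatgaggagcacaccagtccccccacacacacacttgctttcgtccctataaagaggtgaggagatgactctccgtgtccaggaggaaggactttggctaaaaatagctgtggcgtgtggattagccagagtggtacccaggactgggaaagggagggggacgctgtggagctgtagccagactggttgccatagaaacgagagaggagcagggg
Kcnj10: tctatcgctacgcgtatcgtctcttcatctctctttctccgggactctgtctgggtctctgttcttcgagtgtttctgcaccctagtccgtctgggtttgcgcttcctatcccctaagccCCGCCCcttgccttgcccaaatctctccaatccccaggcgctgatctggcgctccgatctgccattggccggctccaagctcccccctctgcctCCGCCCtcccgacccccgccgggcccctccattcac

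These windows differ in composition. Kcnd2 held 22 CG pairs and 68.8% G and C, and Kcnj10 17 CG pairs and 62% G and C. Kcnj9 held 5 CG pairs and 52% G and C, and the window shown for Kcnk10 4 CG pairs and 50%. Kcnk10 has another window, which lies inside an annotated gene and is not shown. Over the 7 windows of the 6 genes that fell and had a window, the medians were 16 CG pairs and 64% G and C. They were 7 CG pairs and 58.4% over all Kcn windows, and 6 CG pairs and 52.4% over the windows of all genes. The GC box occurred 2 times in the window of Kcnj10, 1 time in that of Kcnd2, 1 time in that of Kcnk10 and 0 times in that of Kcnj9. It was present in 43.8% of 89 windows of 64 Kcn genes, against 32.7% of 32851 windows of 27025 genes. The motif TATAAA, searched on both strands, occurred 1 time in the window of Kcnj9 and in 2.25% of Kcn windows, against 12.4% of all windows. The E-box CANNTG, searched on both strands, was present in 66.3% of Kcn windows and in 66.2% of all windows. Of the 7 windows of genes that fell, 71.4% held the GC box, 28.6% the E-box and 0% TATAAA, and so few windows tell little. The letters of these motifs are a description of the windows, and binding was not measured.

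The voltage-gated genes had 7 of 22 members (31.8%) below 0 and 8 (36.4%) above 0 on all 3 arrays. Over all features these shares were 21.4% and 22.1%. Kcnc1 encodes a fast channel that lets neurons fire at high rates, and its log2 ratio was -1.01, -1.03 and -1.12. The arrays were close together, with a mean of -1.05 ± 0.06, which is 2.08-fold lower (limma, adjusted p = 0.0841). Its probe named Kcnc1 on the array had -0.84 ± 0.20 and its probe named through a synonym -1.27 ± 0.30. Kcnd2, which carries much of the A-type current of granule neurons, had -1.03, -1.08 and -0.90. It fell by a mean of 1.00 ± 0.10 (limma, adjusted p = 0.0841), and both of its probes were lower, at -1.16 ± 0.09 and -0.85 ± 0.10.

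As gene means, the measured relatives of Kcnc1 and Kcnd2 did not pass the threshold of 0.10. Kcnc2, a fast channel of interneurons, had 0.33, 0.55 and 0.57, with a mean of 0.49 ± 0.13 (limma, adjusted p = 0.155). Its 5 probes disagreed, with means from -0.45 to 1.15, and the 1 probe named Kcnc2 on the array had 0.69 ± 0.19. Tested singly, 2 of the 5 were higher past 0.10. Kcnc4 was above 0 on all arrays, at 0.22, 0.34 and 0.26, and did not pass (limma, unadjusted p = 0.0805). Kcnd3, the A-type channel better known from Purkinje cells and interneurons, had 0.00, -0.07 and -0.04, and Kcnd1 had 0.20, -0.30 and 0.34.

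Shaker-related genes (Kcna) had a median of 0.33, with 4 of 7 (57.1%) above 0 and 1 (14.3%) below 0 on all arrays. Over all features these shares were 22.1% and 21.4%. Kcna1, an axonal channel mutated in episodic ataxia, was the lower one, at -0.91, -0.60 and -0.18, with a mean of -0.56 ± 0.37 (limma, adjusted p = 0.215). Kcna2, its partner in axons, had 0.04, 0.24 and -0.09 and lay within its spread of 0. Kcna6 had 0.32, 0.40 and 0.26, with a mean of 0.33 ± 0.07 (limma, adjusted p = 0.235). Kcna5 was above 0 on all arrays but with a wide spread, at 0.23, 0.68 and 1.45 (limma, adjusted p = 0.228). The means of the remaining Kcna genes, Kcna3, Kcna4 and Kcna7, were 0.63 ± 0.53, 0.52 ± 0.52 and 0.00 ± 0.56.

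In the ether-à-go-go family (Kcnh), members lay on both sides. Kcnh1 had -0.66, -0.64 and -0.68, the smallest spread over arrays of any of the 82 genes, with a mean of -0.66 ± 0.02 (limma, adjusted p = 0.104). Kcnh3, a channel best known from forebrain, had -0.34, -1.54 and -0.74, with a mean of -0.88 ± 0.61 (limma, adjusted p = 0.198). Its probe named Kcnh3 on the array was tight, at -1.02 ± 0.10, while the probe named through a synonym had -0.73 ± 1.30. With symbols as on the array, that first probe stood alone for Kcnh3 and passed 0.10. Kcnh2, whose channel repolarizes the heart and is also found in neurons, had 0.64, 0.63 and 0.40, with a mean of 0.56 ± 0.14 (limma, adjusted p = 0.132). Kcnh8 had 0.91, 0.10 and 1.55 and Kcnh7 had a mean of -0.12 ± 0.31.

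Of the Kcnq genes, which include those of the M-current that damps repetitive firing, Kcnq1 had -0.42, -0.43 and -0.38, with a mean of -0.41 ± 0.03 (limma, adjusted p = 0.172). Kcnq1, better known from heart and inner ear, has 5 probes, all with means below 0, from -0.78 to -0.12. Kcnq3 had 0.12, -0.11 and -0.42, and Kcnq5 had -0.97, 0.53 and 0.76, so both took either sign. Kcnb2, a delayed rectifier, had -0.29, -0.30 and -0.10.

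Silent subunits (Kcnf, Kcng, Kcns, Kcnv) form no channel alone and modify Kcnb channels. Kcnf1 had 0.53, 0.88 and 0.81, with a mean of 0.74 ± 0.18 (limma, adjusted p = 0.107), but its 2 probes had 1.40 ± 0.45 and 0.08 ± 0.33. Kcns1 had -0.44, -0.27 and -0.31 (limma, adjusted p = 0.231), while Kcns3 had 0.16, 0.35 and 0.32 and Kcns2 a mean of 0.09 ± 0.04. Kcnv2 was lowest on replicates 2 and 3, at -1.47 and -1.35, with 0.07 on replicate 1. Kcnv1 had 0.97, -0.43 and -0.11. Kcng3 and Kcng4 had means of 0.02 ± 0.52 and 0.21 ± 0.32.

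Of the 7 calcium- and sodium-activated pores, 0 had an unadjusted p under 0.05 in limma in either direction, against 9.97% lower and 10.9% higher over all features, and so few genes tell little. Kcnma1, the large-conductance channel opened by calcium and voltage, had 0.23, 0.13 and -0.17. The small-conductance genes Kcnn1, Kcnn2 and Kcnn3 had means of -0.17 ± 0.13, -0.07 ± 0.22 and 0.16 ± 0.58. Kcnn4, better known from blood cells and microglia, had -0.27, -0.81 and 0.15. Kcnt1, a sodium-activated channel, had -0.64, 0.36 and -0.82, and the sperm channel gene Kcnu1 had 0.64, -0.34 and 0.04.

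By contrast, the beta subunits of the large-conductance channel differed. Kcnmb4, its neuronal beta subunit, had -1.44, -0.90 and -0.89, lower on all arrays and lowest on replicate 1. It fell by a mean of 1.08 ± 0.31, or 2.11-fold (limma, adjusted p = 0.0949). Kcnmb1, known from smooth muscle, had 1.11, 0.62 and 0.39, with a mean of 0.71 ± 0.37 (limma, adjusted p = 0.159), and Kcnmb2 had a mean of -0.16 ± 0.41. Each of Kcnmb1 and Kcnmb4 rests on 1 probe.

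Noncoding neighbours gave further values. Kcnmb4os2, a long noncoding RNA whose span overlaps that of Kcnmb4 on the opposite strand, had -1.53, -1.11 and -1.08, in the same order over arrays as Kcnmb4. It fell by a mean of 1.24 ± 0.25, or 2.36-fold (limma, adjusted p = 0.0841). Whether either probe tells the strands apart is not stated, so signal of the pair cannot be told apart. Kcnd3os overlaps Kcnd3 on the opposite strand and had 0.48, 0.57 and 0.82, with a mean of 0.62 ± 0.18 (limma, adjusted p = 0.125), whereas Kcnd3 had a mean of -0.04 ± 0.04. Kcnq1ot1, the imprinted transcript within Kcnq1, had a mean of -0.14 ± 0.09, and Kcnq1 had -0.41 ± 0.03.

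Of the auxiliary subunits of the A-type and Shaker channels, none passed the threshold of 0.10. Kcnip3, a calcium sensor that binds Kcnd channels and also acts in the nucleus, had -0.59, -0.44 and -0.56, with a mean of -0.53 ± 0.08 (limma, adjusted p = 0.13). Kcnip1, a relative of interneurons, had 0.39, 0.34 and 0.40, with a mean of 0.38 ± 0.03 (limma, adjusted p = 0.193). Kcnip4 had -0.14, -0.18 and -0.23 and Kcnip2 a mean of 0.00 ± 0.05. The beta subunits Kcnab1, Kcnab2 and Kcnab3 had means of 0.20 ± 0.13, 0.21 ± 0.27 and -0.04 ± 0.25. Kcnrg, which hinders assembly of Shaker channels, had 0.08, 0.93 and 0.10.

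The single-span Kcne subunits included 2 higher genes. Kcne1l, the X-linked member, had 0.49, 0.81 and 0.91, with a mean of 0.74 ± 0.22 (limma, adjusted p = 0.113). Kcne2, known from the choroid plexus epithelium, had 0.22, 0.64 and 1.25, highest on the dye-flipped array (limma, adjusted p = 0.22). The choroid plexus markers were above 0 on all arrays for 5 of 8 genes and below 0 for 1. Over all features, 22.1% were above and 21.4% below 0 on all arrays. The list medians of these markers were 0.40, 0.25 and 0.37 on replicates 1, 2 and 3. Their part in the value of Kcne2 was not tested. Kcne1, Kcne3 and Kcne4 took both signs, with means of -0.14 ± 0.41, -0.17 ± 0.29 and 0.33 ± 0.86, and the 3 probes of Kcne1 ranged from -0.77 to 0.60.

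Of the 82 Kcn genes, 22 were below 0 and 26 above 0 on all 3 arrays, the dye-flipped one included. For 10 of 82 Kcn genes (12.2%) replicates 1 and 2 shared a sign that replicate 3 turned, against 21.4% of all features. In the remaining Kcn genes, replicates 1 and 2 differed in sign or a value was 0. Over all probes other than spots that follow the dye, the Pearson correlation was 0.44 between replicates 1 and 2. With the dye-flipped replicate 3 it was 0.274 for replicate 1 and 0.229 for replicate 2. The 7 genes that fell were chosen on all 3 arrays, so their shared sign on replicate 3 adds no support. Kcnc1 was lowest on the flipped array while Kcnj12, Kcnk10, Kcnk3, Kcnd2, Kcnmb4 and Kcnmb4os2 were nearest 0 there. Kcnj6, Kcnma1 and Kcna2 were among the 10 that turned, as were Kcnn2, Kcnn3, Kcnn4, Kcng4, Kcnj1, Kcnk16 and Kcnk18.

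**Figure D3:**
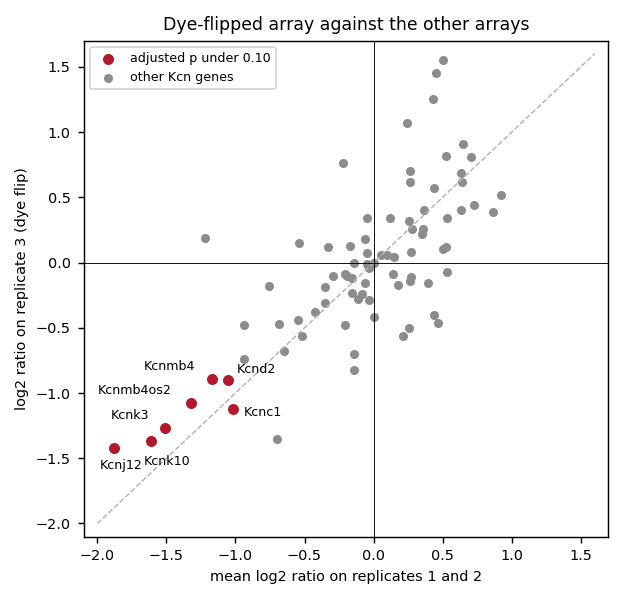
Log2 ratio of cKO over wild type on the dye-flipped replicate 3 (y axis) against the mean of replicates 1 and 2 (x axis) for the 82 Kcn genes; the dashed line marks equal values. The 7 genes with adjusted p under 0.10 (red, named) lie at the lower left, and the other Kcn genes (grey) spread about 0.

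Of the 33 Kcn genes with several probes, 18 had probe means of 1 sign and 15 did not. A probe mean that rounds to 0, as in Kcnd1 and Kcnip4, counted as not of 1 sign. The same share over all genes with several probes was not computed. The probes of Kcnk10, Kcnk3, Kcnc1, Kcnd2, Kcnj3 and Kcnj9 were of 1 sign, while those of Kcnc2, Kcnk4, Kcne1 and Kcnj15 lay on both sides of 0, and the probe means of Kcnj15 ranged from -0.79 to 0.52. For the 49 genes with 1 probe, Kcnj12 and Kcnmb4 among them, no such comparison can be made. Of the 127 probes, 20 were named through a synonym.

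**Figure D4:**
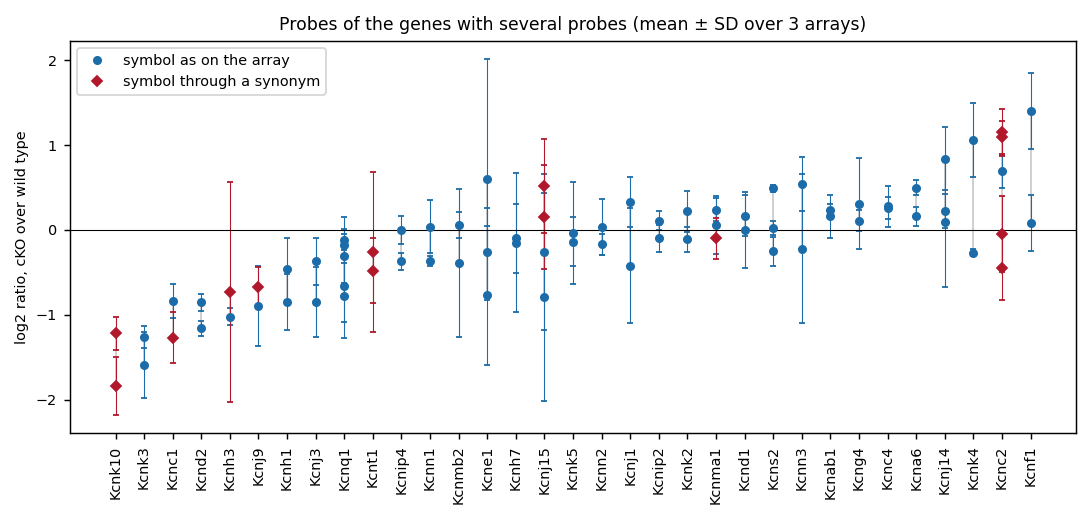
Log2 ratio of cKO over wild type (y axis) of each probe of the 33 Kcn genes with several probes (x axis, ordered by mean), as mean with SD over 3 arrays. Circles are probes with the symbol as on the array and diamonds probes named through a synonym; the probes of Kcnk10, Kcnk3, Kcnc1 and Kcnd2 all lie below 0, and those of Kcnc2 on both sides.

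Partners of these channels that are not named Kcn also went both ways, with a median of -0.07 over 21 measured genes. At an unadjusted p of 0.05 in limma, 6 were lower and 4 higher, against 9.97% and 10.9% of all features. Nedd4l, a ubiquitin ligase that removes channels from the membrane, fell by 0.82 ± 0.13 (limma, adjusted p = 0.0936), and Abcc8 had -0.89 ± 0.26 (limma, adjusted p = 0.104). Dpp6 and Dpp10, the peptidase-like partners of Kcnd channels, had -0.07 ± 0.08 and 0.18 ± 0.21, both within 1 SD of 0. They were named after their values were seen.

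Cell type markers differed on the same arrays. Their lists were chosen with earlier results of these data known, so the counts are a description only. Over all features, 21.4% were below and 22.1% above 0 on all arrays, and 1.68% fell and 2.08% rose past 0.10. Granule neuron markers were below 0 on all arrays for 11 of 12 genes, with 5 past the threshold of 0.10 and list medians of -1.52, -0.96 and -0.80 on replicates 1, 2 and 3. Kcnk3 and Kcnd2, both known in granule neurons, were lower on the same arrays, and the part of the granule neuron markers in their values was not tested. In bulk tissue, fewer cells of a type and less RNA per cell cannot be told apart. Markers of monoamine and brainstem neurons were above 0 on all arrays for 9 of 9 genes, with list medians of 2.41, 1.85 and 1.87. The part of such tissue in any Kcn value, or in that of Drd2, was not tested. Purkinje cell markers had list medians of -0.05, 0.03 and 0.00, and endothelial and pericyte markers 0.04, -0.07 and 0.02. Oligodendrocyte lineage markers were above 0 on all arrays for 5 of 9 genes and below 0 for 1, with 3 past the threshold of 0.10 (Enpp6, Pdgfra and Olig2) and list medians of 0.15, 0.01 and 0.35.

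**Figure D5:**
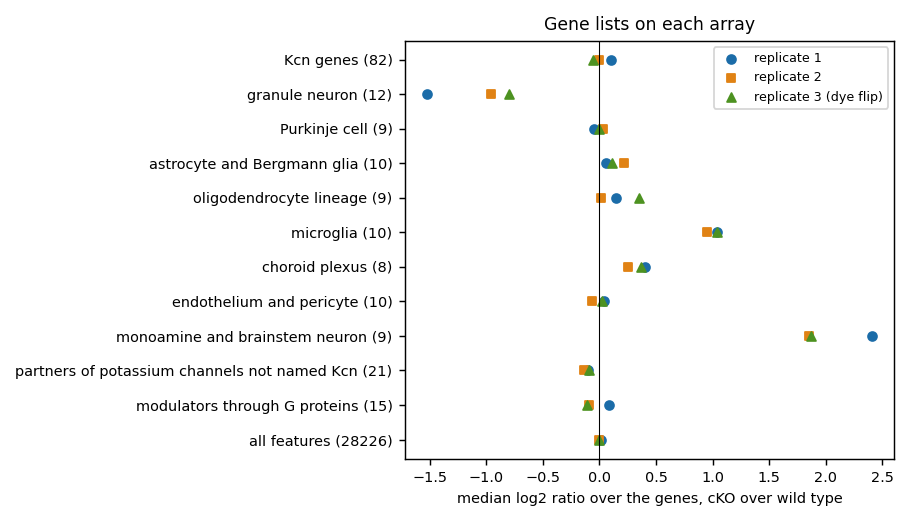
Median log2 ratio of cKO over wild type (x axis) on each array for the Kcn genes, the gene lists and all features. The lists are cell type markers, partners and G protein modulators, chosen with earlier results of these data known. The number of genes measured is in brackets. The Kcn median stays between -0.06 and 0.10 while the granule neuron list lies far left and the microglial and monoamine lists lie right of 0.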

How the data were processed

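The deposited table holds 1 log ratio per probe and array, used as log2 ratios as the authors deposited them, with array medians of 0.01, 0.00 and 0.00 over all features. The sources used here do not state the scanner, the background correction, the normalization or the log base. Per the labels, cKO was channel 2 on all arrays, with dyes exchanged on replicate 3. Values were read as channel 2 over channel 1. The 49 unnamed spots of over 5 in size that turned sign with the dye (means -7.81, -7.86 and 7.66 on replicates 1, 2 and 3) were left out. All columns of sample values were used.

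Of 38880 probes, 30457 had 1 gene symbol on the old platform annotation, 0 had several and 8423 none. Through a RefSeq gene table (GRCm38.p6, used for names and gene order), 18812 matched a current symbol, 11220 a synonym of 1 gene, 162 a synonym of several genes and 263 none, and these last 2 kinds kept their own. Probes of a gene were averaged per array.

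Ratios were tested against 0 with limma 3.58.1 (R 4.3.3; lmFit, eBayes; 2 residual and 2.09 prior degrees of freedom), adjusted over all 28226 features, and the script was tested on simulated data. Tables and plots used Python 3.11.15, pandas 2.3.3 and matplotlib 3.10.9. The members, lists, thresholds and alternatives were chosen with earlier results of these data known. The rule for named genes took 25 fixed ones (20 measured), all with p under 0.05 and 1 sign, and the extremes of each subfamily; others were picked after their values were seen. Promoter sequences are from RefSeq, GRCm38.p6.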

Additional observations from a re-analysis of the deposited data

How the results depend on the processing

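The count of Kcn genes with adjusted p under 0.10 was 7, and 6 or 7 with the median over probes, array symbols, other centring or scaling, quantile normalization, robust moderation, dye spots kept or features on at least 2 arrays. These were not always the same genes. With array symbols, 5 of the 6 were among the main 7. Kcnh3 entered there, and Kcnk10 and Kcnmb4os2, named only through synonyms, were absent. With scaling, quantile normalization or robust moderation, Kcnmb4 no longer passed. The count was 0 with a dye term, without moderation and with the sign of the dye-flipped array turned. It was also 0 without any 1 array (lowest and highest 0). Of all 28226 features, 0 passed 0.10 with a dye term or without any 1 array. Without moderation 2 features passed, as did 2 with the sign turned. With each probe tested on its own, the result is a count of probes and not of genes. Of 127 Kcn probes 15 passed, 3 of them higher (2 of Kcnc2 and 1 of Kcnf1), against 1912 of 38753 features. Over these settings other than single probes and the turned sign, the adjusted p of the 7 genes ranged from 0.0824 to 0.378. Their means stayed below 0. With an array left out, a dye term or no moderation this was fixed, because all 7 were below 0 on every array. Genes with unadjusted p under 0.05 numbered 12 lower without any 1 array, and 9 to 10 higher (9 without replicate 2, against 14 with all arrays). With the sign of the dye-flipped array turned, 0 lower and 0 higher genes remained at that p, 4 were below and 6 above 0 on all arrays, and Kcne2 (-0.13) and Kcna5 (-0.18) reversed. In the count of Kcn genes below 0 on all arrays, single probes gave 35 of 127 probes, against 22 of 82 genes. The Kcn median stayed between -0.04 and 0.02 in every setting that gives one. A gene with 1 sign on all 3 arrays cannot keep it once the sign of 1 array is turned, so that loss follows from the setting. The cause of the other changes was not tested. The test of ratios within arrays already uses the pairing of cKO and wild type on an array, so no fit with a separate block was made. Signal over background was not analysed here.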
